A study of Mus musculus with 6 samples.

Results

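Transcripts of the SUMO conjugation pathway were followed in mouse two-cell embryos that did or did not carry injected mRNA for the SUMO ligase PIASy. The genes were chosen by name, with earlier results of these data known: the modifiers Sumo2 and Sumo3, the subunits of the activating enzyme Sae1 and Uba2, and the PIAS ligases Pias1, Pias2, Pias3 and Pias4, which together are 8 of the 53023 genes in the expression table. All 8 passed the filter of an FPKM (fragments on the gene, scaled by its length and by the library's total) of 1 or more in 2 or more libraries. Embryos of the ICR strain were left without injection (non-injection), or received 100 ng/µL mRNA in the zygote cytoplasm at 1.5 to 3 hours post insemination (hpi). The injected mRNA coded for mCherry-HA tagged PIASy, either the wild type (PIASy-WT) or the C335F mutant (PIASy-Mut). Injected embryos with fluorescence were selected at 9 hpi, and all groups were collected at 28 hpi. Each of the 3 groups had 2 libraries of 5 pooled embryos, so the error is between pools, and nothing in the labels says that the pools came from separate matings. The comparison group was not injected with a control mRNA in these libraries. An effect of injection itself is therefore shared by both injected groups, and PIASy-WT against PIASy-Mut is the comparison in which it is matched.

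SUMO proteins are small relatives of ubiquitin that are attached to lysines of other proteins. A modifier is first activated by the heterodimer of SAE1 and UBA2 (the E1 enzyme), is then passed to an E2 enzyme, and is placed on its substrate with the help of E3 ligases such as the PIAS family. Proteases of the SENP family mature the modifiers and remove them again. Many substrates are chromatin proteins and transcription factors. At the two-cell stage the embryo breaks down RNA stored in the oocyte and starts major transcription of its own genome, so the RNA level of a gene can hold both stored and new transcripts.

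The mutated residue lies in the SP-RING region of PIASy, the part of PIAS proteins that contacts the E2 enzyme. The coding sequence around it is shown for Pias4 and for both paralogs that could be aligned, because it is the only difference the labels give between the injected mRNAs. Each line holds 63 bases of the reference coding strand of mm10, with the codon of the cysteine in capitals. The Pias4 codon is number 335 and lies on the minus strand at chr10:81155707-81155709 in exon 9 of 11. The Pias1 codon is number 351, at chr9:62895947-62895949 on the minus strand in exon 9 of 14. The Pias3 codon is number 334, at chr3:96702399-96702401 on the plus strand in exon 9 of 14.
Pias4: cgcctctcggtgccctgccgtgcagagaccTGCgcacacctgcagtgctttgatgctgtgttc
Pias1: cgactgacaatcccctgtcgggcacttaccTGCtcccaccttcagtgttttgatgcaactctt
Pias3: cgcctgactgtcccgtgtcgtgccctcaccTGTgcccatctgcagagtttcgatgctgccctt
A cysteine codon stood at the aligned position in all 3 genes. Of the 63 bases, 42 were identical between Pias4 and Pias1, and 43 between Pias4 and Pias3. The reference proteins have 507 residues for PIASy, 651 for PIAS1 and 619 for PIAS3. Of residues aligned to PIASy, 242 of 473 were identical in PIAS1 (51.2%) and 234 of 454 in PIAS3 (51.5%). PIAS1 and PIAS3 shared 62.5% of aligned residues. Sequence shared between the genes was rare at the length of a read. Of windows of 50 bases, none of Pias1 or Pias3 and 0.294% of Pias4 were found in another annotated gene.

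The libraries held 871663 to 1363928 fragments on genes, so 3 fragments, the limit used for detection, correspond to 2.20 to 3.44 CPM (counts scaled to the library's total). The authors added ERCC spike-in RNA at lysis. It was not used here, and levels are shares of each library's RNA. Fewer cells of a type and less RNA per cell cannot be told apart in such data. PIASy-Mut 2 was nearer to PIASy-WT than PIASy-Mut 1 was. Its Spearman correlation over genes was 0.772 and 0.747 with the PIASy-WT libraries, against 0.653 and 0.612 for PIASy-Mut 1. With the non-injection libraries it was higher, at 0.821 and 0.819, and with PIASy-Mut 1 it was 0.788. Oocyte markers (11 genes) summed to 4090 to 4527 CPM in non-injection and 7877 to 8175 in PIASy-WT, with 4182 in PIASy-Mut 1 and 6562 in PIASy-Mut 2. Of these markers Bmp15 rose and Zp3 fell against the mean of the other groups (1.51 and -1.62 on the log2 scale, limma adjusted P 0.0447 and 0.0127). Bmp15 made up much of the sum (1410 to 1474 CPM in non-injection, 3926 to 4523 CPM in PIASy-WT), and the median difference of the list was 0.24. Markers of the two-cell stage (8 genes in the table) summed to 2418 to 2624 in non-injection, 2861 to 3359 in PIASy-Mut and 1003 to 1436 in PIASy-WT. Against the mean of the other groups 3 of the 8 fell, beside 10.4% of all genes. These were Tdpoz1, Tcstv3 and Usp17lb (-2.31, -1.26 and -2.69, limma adjusted P 0.0140, 0.0329 and 0.0106). The other 5 did not pass, with Zscan4d at -0.18 and Zscan4c at -0.02, and the median of the list was -0.93. Of 10 cumulus markers, Amh, Foxl2 and Inha had 0 fragments in every library. Tnfaip6 had 4 to 11 fragments in a library and Cyp19a1 1 to 7, and the remaining markers had at most 2. Together the 10 cumulus markers reached 4.40 to 18.4 CPM. Tnfaip6 differed by 0.66 against the mean of the other groups (limma adjusted P 0.238). The 5 trophectoderm markers summed to 10.3 to 13.3 CPM without injection, 15.5 and 36.7 CPM with PIASy-Mut and 60.0 to 77.0 CPM with PIASy-WT. Gata3 made up most of the sum in PIASy-WT, at 48.3 and 41.8 CPM (64 and 48 fragments). Krt18 was at 2 fragments in each non-injection library and at 20 and 12 in PIASy-WT. Cdx2 and Elf5 had 0 or 1 fragment in every library. These levels moved with the groups, and their part in the results on the SUMO genes was not tested.

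Pias4, the injected gene, was low in embryos without injection and by far the most abundant of the 8 genes after injection. Its level was 2.98 and 3.59 FPKM in non-injection, 862 and 611 FPKM in PIASy-Mut, and 610 and 579 FPKM in PIASy-WT. The non-injection level rests on 15 fragments in each library, and the injected levels on 1967 to 3288 fragments. The groups with and without injection did not overlap, whereas PIASy-Mut 2 and PIASy-WT 1 were nearly level. Pias4 rose by 7.12 on the log2(FPKM + 1) scale in PIASy-WT (SE 0.26, limma adjusted P 0.00209) and by 7.41 in PIASy-Mut (SE 0.26, adjusted P 0.00164), each against non-injection. Without either non-injection library these adjusted P were 0.0827 to 0.0924 and 0.0675 to 0.0748, and then 0 genes of the whole table passed against non-injection. In PIASy-WT against PIASy-Mut the difference was -0.29, with a 95% interval of -0.93 to 0.35 (adjusted P 0.513), and it was -0.04 without PIASy-Mut 1 and -0.54 without PIASy-Mut 2. Injected and endogenous Pias4 RNA cannot be told apart here, since fragments were counted per gene. Pias4 took 0.214% to 0.319% of all fragments after injection, against 0.00110% and 0.00133% in non-injection.

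**Figure D1:**
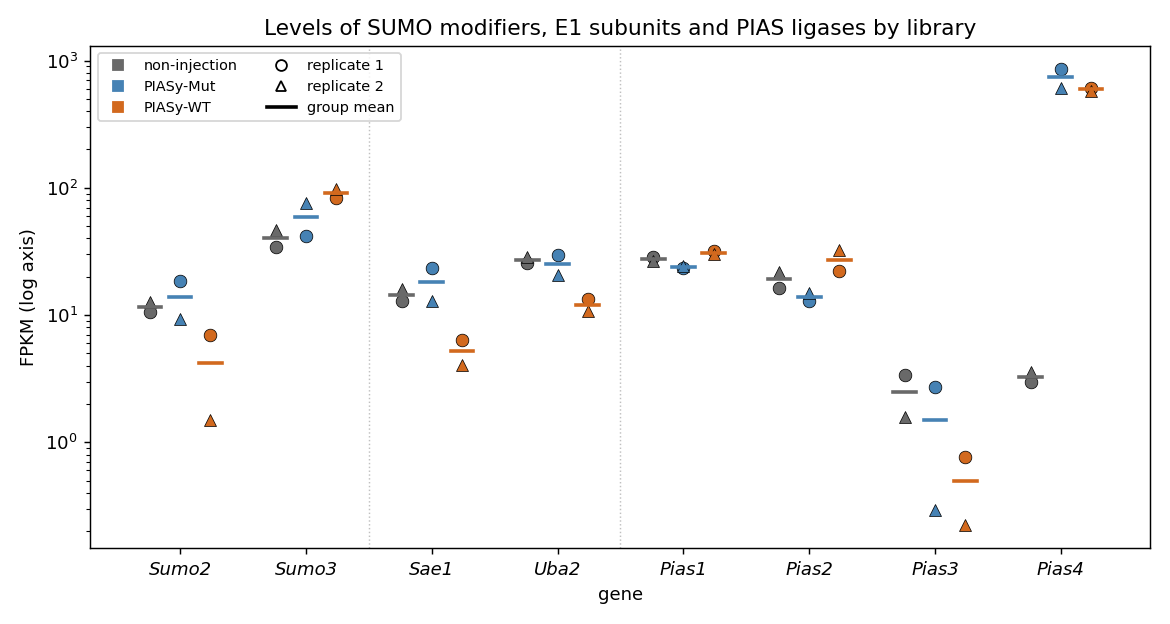
Level of each SUMO gene in each library, in FPKM on a log axis, with circles for replicate 1, triangles for replicate 2, bars for the mean of 2 libraries and dotted lines between modifiers, E1 subunits and PIAS ligases. Pias4 lies at 579 to 862 FPKM in the injected groups and at 2.98 and 3.59 in non-injection, and the PIASy-WT points of Sumo2, Sae1 and Uba2 lie below all 4 others.

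Of the 7 genes that were not injected, 0 passed an adjusted P of 0.05 in PIASy-WT against non-injection, beside 6.80% of all 16100 genes tested. In PIASy-WT against PIASy-Mut, 0 of all 8 passed, beside 6.83% of all genes. At an unadjusted P under 0.05 the counts were 3 of 7 (all genes, 28.2%) and 4 of 7 (all genes, 27.7%). In PIASy-Mut against non-injection Pias4 was the 1 gene called of all 16100 (0.00621%), and at an unadjusted P under 0.05 the count among the other 7 was 0 (all genes, 4.46%). Against the mean of both other groups, which uses 4 libraries on one side, Sae1 and Uba2 fell and none of the 7 rose, beside 10.4% of all genes lower and 2.68% higher. Of the 7 genes, 3 had both PIASy-WT libraries below all 4 others (Sumo2, Sae1, Uba2), beside 24.4% of all genes, and 3 had both above (Sumo3, Pias1, Pias2), beside 19.9%. All these comparisons share libraries, so they are not independent of each other.

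The modifiers Sumo2 and Sumo3 lay on opposite sides of the other groups in PIASy-WT. Both code for chain-forming SUMO proteins that are nearly the same after maturation. The reference proteins have 95 and 110 residues and share 90 of 94 aligned residues (95.7%). Sumo2 lies on the minus strand at chr11:115523102-115536276 and Sumo3 on the plus strand at chr10:77606097-77618331 (mm10).

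Sumo2 was at 10.6 and 12.7 FPKM in non-injection, 18.4 and 9.25 FPKM in PIASy-Mut, and 6.95 and 1.50 FPKM in PIASy-WT. These values came from 14 to 33 fragments outside PIASy-WT, and from 16 and 3 fragments within it. Both PIASy-WT libraries were the lowest of the 6, and they differed from each other more than the non-injection libraries did. The difference was -1.50 against non-injection (SE 0.62, 95% interval -3.00 to 0.01, adjusted P 0.179) and -1.66 against PIASy-Mut (adjusted P 0.148), neither of which passed. Against non-injection it was -2.33 without PIASy-WT 1 and -0.66 without PIASy-WT 2. Sumo2 has processed copies elsewhere in the genome: 19.2% of its windows of 50 bases occurred in 14 other annotated genes. Since uniquely mapped reads were counted, fragments from those stretches may be missing from its level in all groups. The pseudogene among them with the most fragments, Gm12335, had 0 to 3 in a library, and the protein-coding Samd8, which shares 23 windows, had 66 to 117.

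Sumo3 was the highest of the 7 genes not injected in every library. Its level was 34.3 and 46.6 FPKM in non-injection, 42.1 and 76.2 FPKM in PIASy-Mut, and 82.9 and 98.4 FPKM in PIASy-WT, from 159 to 414 fragments. Both PIASy-WT libraries were above all 4 others, with PIASy-Mut 2 next to them and PIASy-Mut 1 within the range of non-injection. The ratio of group means was 2.24 for PIASy-WT over non-injection. On the log2 scale the difference was 1.16 (SE 0.35, 95% interval 0.29 to 2.02), and it did not pass (adjusted P 0.1002). It passed without PIASy-Mut 1 (0.0342) or PIASy-Mut 2 (0.0352), which leaves the difference as it was and changes the spread estimate and the genes tested (15316 and 15360), and by voom on recovered fragments (0.0263). Against PIASy-Mut it was 0.66 with an interval of -0.20 to 1.53 (adjusted P 0.284), and it was 0.24 without PIASy-Mut 1 and 1.08 without PIASy-Mut 2, passing in neither. A second short gene entry of the same symbol shares 346 exon bases with Sumo3 and held 0 or 1 fragment in each library.

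Summed over Sumo2 and Sumo3, the only modifiers counted here, the level was 44.8 and 59.4 FPKM in non-injection, 60.5 and 85.4 FPKM in PIASy-Mut, and 89.8 and 99.9 FPKM in PIASy-WT. Sumo2 made up 23.6% and 21.5% of that sum in non-injection. In PIASy-Mut it made up 30.4% and 10.8%, and in PIASy-WT 7.74% and 1.50%. The sum was thus higher in PIASy-WT than in the other 4 libraries, and a smaller part of it was Sumo2. The PIASy-Mut libraries lay on both sides of non-injection in the share, and PIASy-Mut 2 was the nearest to PIASy-WT.

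Sequences upstream of the modifier genes are shown because their transcripts lay on opposite sides. They are the reference bases directly before each gene (RefSeq promoter table, GRCm38.p6), 5′ to 3′ on the gene's strand, with GC boxes (GGGCGG on either strand) in capitals. For Sumo2 they cover chr11:115536277-115536480 on the minus strand, and for Sumo3 chr10:77605847-77606096 on the plus strand.
Sumo2: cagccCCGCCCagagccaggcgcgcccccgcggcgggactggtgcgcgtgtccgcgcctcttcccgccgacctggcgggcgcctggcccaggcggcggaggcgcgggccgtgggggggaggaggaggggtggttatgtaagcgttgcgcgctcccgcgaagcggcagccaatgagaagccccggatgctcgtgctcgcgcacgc
Sumo3: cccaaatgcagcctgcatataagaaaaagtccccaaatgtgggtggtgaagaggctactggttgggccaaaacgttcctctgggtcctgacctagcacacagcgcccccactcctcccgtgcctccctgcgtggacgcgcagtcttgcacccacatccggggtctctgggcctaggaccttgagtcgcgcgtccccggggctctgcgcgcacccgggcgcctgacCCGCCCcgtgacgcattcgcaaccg
The 204 bases of Sumo2 held 1 GC box and 1 CCAAT box (CCAAT on either strand), which 25.4% and 29.1% of 32851 promoter windows cut to that length have. The 250 bases of Sumo3 held 1 GC box, as 32.7% of windows of that length do, and no CCAAT box (33.8%). Neither held TATAAA (9.30% and 12.4%). The counts depend on the window: 250 bases of the Sumo2 entry hold 2 GC boxes, and further start sites listed for Sumo3 have 0 and 3. These matches describe the letters in the window only.

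Both subunits of the E1 enzyme were at their lowest in PIASy-WT. SAE1 and UBA2 form a heterodimer, in which UBA2 carries the catalytic cysteine and takes up the activated SUMO. Sae1 lies at chr7:16320234-16387806 and Uba2 at chr7:34140688-34169599, both on the minus strand of mm10, so the genes are on one chromosome and far apart. No window of 50 bases of Sae1 and 2.34% of those of Uba2 occurred in other genes.

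Sae1 was at 13.0 and 16.0 FPKM in non-injection, 23.5 and 12.8 FPKM in PIASy-Mut, and 6.39 and 4.02 FPKM in PIASy-WT. The PIASy-WT levels rest on 22 and 12 fragments, and the others on 29 to 63. The PIASy-WT libraries did not overlap either group, and the PIASy-Mut libraries spanned the range of non-injection. Sae1 fell by 1.47 on the log2 scale against the mean of the other groups (SE 0.35, adjusted P 0.0450). In the pairwise comparisons the differences were -1.34 against non-injection (95% interval -2.31 to -0.37, adjusted P 0.0944) and -1.59 against PIASy-Mut (95% interval -2.57 to -0.62, adjusted P 0.0666), which did not pass.

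Uba2 had 25.8 and 28.7 FPKM in non-injection, 29.4 and 20.5 FPKM in PIASy-Mut, and 13.4 and 10.7 FPKM in PIASy-WT. It was measured with 74 to 212 fragments, more than Sae1 had in every library. Both PIASy-WT libraries were again below all 4 others. Uba2 fell by 1.05 against the mean of the other groups (SE 0.26, adjusted P 0.0488). Pairwise, the difference was -1.12 against non-injection (SE 0.30, adjusted P 0.0737) and -0.98 against PIASy-Mut (adjusted P 0.0981). Against PIASy-Mut the differences were -2.01 for Sae1 and -1.23 for Uba2 without PIASy-Mut 2. Without PIASy-Mut 1 instead they were -1.18 and -0.73. Each of these fits rests on a lone PIASy-Mut library. Against non-injection both passed without either PIASy-Mut library (Sae1 0.0460 to 0.0476, Uba2 0.0352 to 0.0356). Without PIASy-WT 1 the calls of Sae1 and Uba2 against the mean of the other groups were lost (adjusted P 0.127 and 0.174), as they were without PIASy-WT 2 (0.273 and 0.303), without PIASy-Mut 1 (0.0568 and 0.0553) and without either non-injection library (0.104 to 0.126 and 0.120 to 0.140). They were also lost without a filter (0.0743 and 0.0765), with quantile normalization (0.0609 and 0.0809), with median-of-ratios scaling (0.0529 and 0.0611) and without a trend (0.0602 and 0.0783), and of 17 alternatives Sae1 passed in 7 and Uba2 in 6.

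The summed level of both E1 subunits was 38.8 and 44.7 FPKM in non-injection, 52.9 and 33.3 FPKM in PIASy-Mut, and 19.8 and 14.7 FPKM in PIASy-WT. Sae1 stayed below Uba2 in each library. Their ratio was 0.504 and 0.557 without injection, 0.800 and 0.624 with PIASy-Mut, and 0.478 and 0.377 with PIASy-WT. The sum of Sumo2 and Sumo3 divided by the E1 sum was 1.16 and 1.33 without injection, 1.14 and 2.56 with PIASy-Mut, and 4.54 and 6.80 with PIASy-WT. The ratio was above 1 in every library and highest in PIASy-WT, and PIASy-Mut 2 was again the closest to it.

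**Figure D2:**
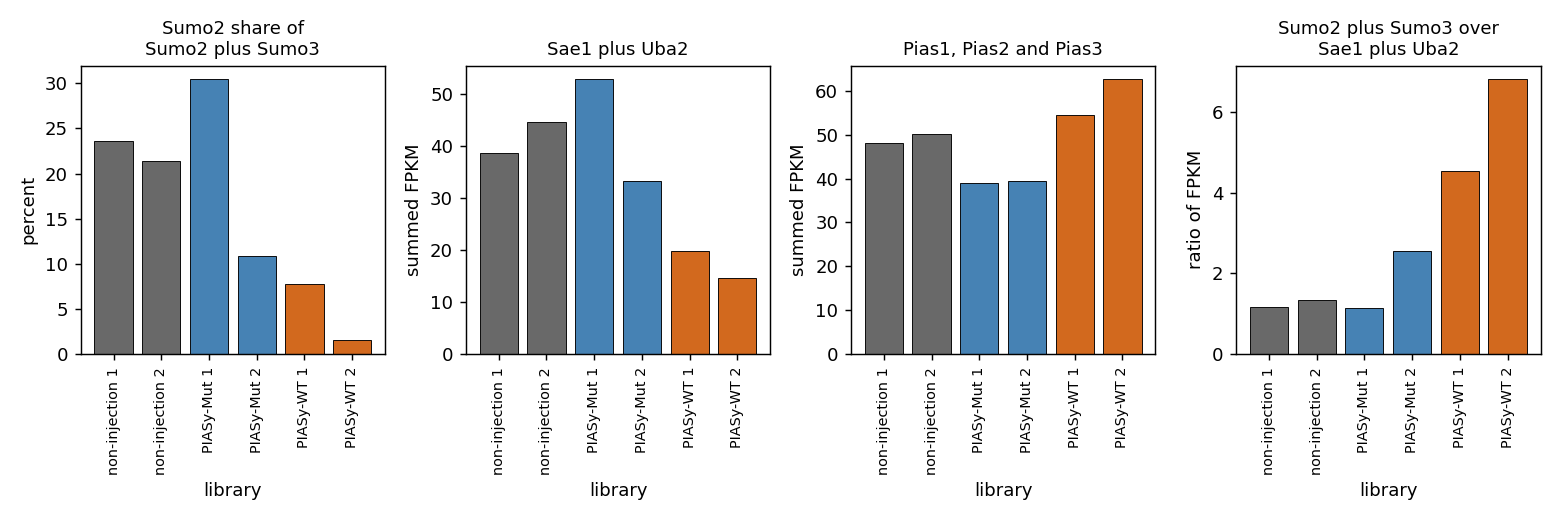
Bars per library for the share of Sumo2 in Sumo2 plus Sumo3 in percent, the summed FPKM of Sae1 and Uba2, the summed FPKM of Pias1, Pias2 and Pias3, and the ratio of Sumo2 plus Sumo3 to Sae1 plus Uba2. The ratio is 4.54 and 6.80 in PIASy-WT and 1.14 to 2.56 in the other libraries, and PIASy-Mut 2 has the highest ratio among those.

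Among the PIAS ligases that were not injected, Pias1 and Pias2 had their highest values in PIASy-WT without passing the test, and Pias3 was close to the limit of detection. PIAS proteins recruit the loaded E2 enzyme to a substrate and were first named as inhibitors of STAT proteins. Pias1 lies at chr9:62878368-62987924 on the minus strand, Pias2 at chr18:77065208-77155708 on the plus strand and Pias3 at chr3:96696384-96706070 on the plus strand.

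Pias1 was the steadiest of the genes. It had 28.3 and 26.7 FPKM in non-injection, 23.4 and 24.4 FPKM in PIASy-Mut, and 31.6 and 30.2 FPKM in PIASy-WT, from 145 to 286 fragments. The SD was 2.82% to 4.29% of the mean in each group (n = 2). The groups were ordered PIASy-Mut, non-injection and PIASy-WT without overlap. The differences were small: 0.16 in PIASy-WT against non-injection (95% interval -0.41 to 0.74, adjusted P 0.680) and 0.36 against PIASy-Mut (-0.22 to 0.93, adjusted P 0.380).

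Pias2 had 16.3 and 22.0 FPKM in non-injection, 12.8 and 14.8 FPKM in PIASy-Mut, and 22.2 and 32.2 FPKM in PIASy-WT. The lower PIASy-WT library was nearly level with the higher non-injection library, and both PIASy-Mut libraries were below the rest. The difference was 0.48 against non-injection (95% interval -0.29 to 1.24, adjusted P 0.365) and 0.91 against PIASy-Mut (95% interval 0.15 to 1.67, adjusted P 0.126), and neither passed.

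Pias3 had 3.37 and 1.58 FPKM in non-injection, 2.72 and 0.293 FPKM in PIASy-Mut, and 0.770 and 0.222 FPKM in PIASy-WT. The fragments behind these values were 18 and 7, 11 and 1, and 4 and 1. PIASy-WT lay below non-injection and overlapped PIASy-Mut. The difference against non-injection was -1.19 with a 95% interval of -2.73 to 0.35 (adjusted P 0.271), and it did not pass. Pias3 shares 4 exon bases with Nudt17 on the opposite strand, which had 3 fragments in PIASy-Mut 1 and 0 in the other libraries.

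Together Pias1, Pias2 and Pias3 reached 48.0 and 50.2 FPKM in non-injection, 39.0 and 39.4 FPKM in PIASy-Mut, and 54.6 and 62.6 FPKM in PIASy-WT. Pias4 made up 5.83% and 6.67% of all PIAS RNA in non-injection. After injection of PIASy-Mut it made up 95.7% and 93.9%, and after injection of PIASy-WT 91.8% and 90.2%. In embryos without injection the ligase RNA was thus mostly Pias1 and Pias2, and in both injected groups it was mostly Pias4. The level of Pias4 exceeded the sum of the other ligases 22.1 and 15.5 times in PIASy-Mut and 11.2 and 9.24 times in PIASy-WT. FPKM divides Pias4 fragments by its whole gene model of 3695 bases, while the injected mRNA came from a cloned cDNA. Shares and ratios with injected Pias4 are therefore not ratios of molecules.

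**Figure D3:**
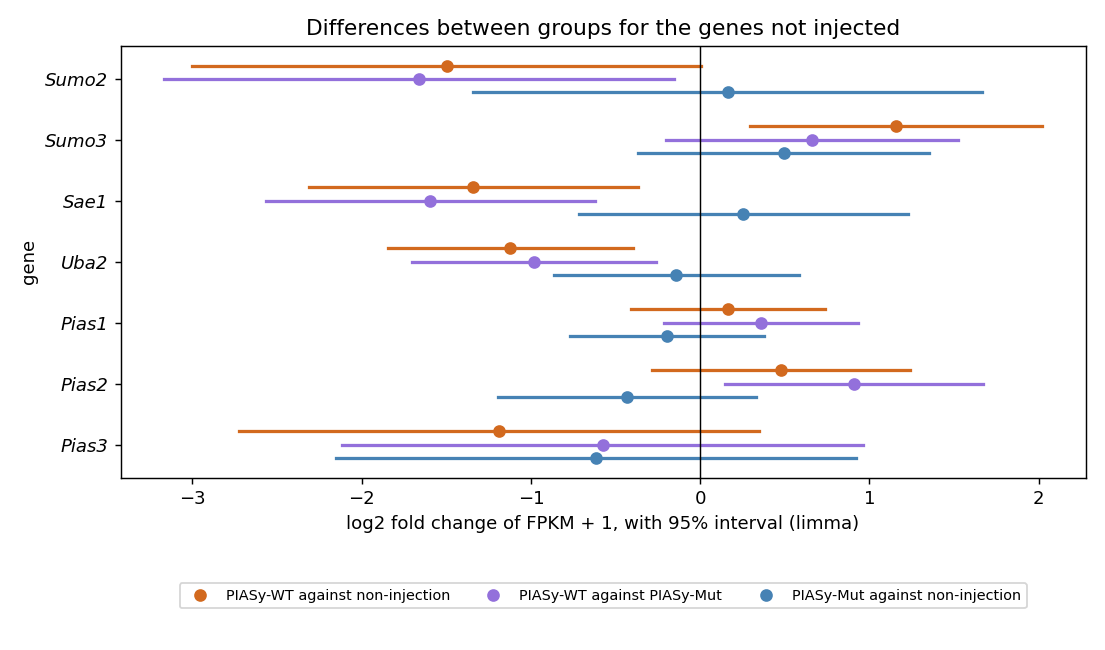
Differences of log2(FPKM + 1) with 95% intervals from limma for the 7 genes not injected, in PIASy-WT against non-injection, PIASy-WT against PIASy-Mut and PIASy-Mut against non-injection. The intervals of Sae1 and Uba2 lie below 0 in both PIASy-WT comparisons, that of Sumo3 lies above 0 against non-injection (0.29 to 2.02), those of Sumo2 (-3.17 to -0.16) and Pias2 (0.15 to 1.67) exclude 0 against PIASy-Mut, none of these passed after adjustment, and every interval of PIASy-Mut against non-injection includes 0.

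In PIASy-Mut against non-injection the 7 genes differed by -0.61 (Pias3) to 0.49 (Sumo3), each at an adjusted P of 1. The intervals remain wide: that of Sumo2 ran from -1.34 to 1.67 and that of Sae1 from -0.72 to 1.23. For Uba2 the interval was -0.86 to 0.58 and for Pias1 -0.77 to 0.38.

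Within non-injection the order of levels was Sumo3, Pias1, Uba2, Pias2, Sae1, Sumo2, Pias4 and Pias3. Pias1 and Uba2, and Pias4 and Pias3, had ranges that overlapped with their neighbour. In PIASy-WT the order was Pias4, Sumo3, Pias1, Pias2, Uba2, Sae1, Sumo2 and Pias3, with overlapping ranges for Pias1 and Pias2 and for Sae1 and Sumo2. Uba2 therefore stood above Pias2 without injection and below it in PIASy-WT. In PIASy-Mut the ranges of Uba2, Pias1, Sae1, Sumo2 and Pias2 each overlapped with the next.

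Over the 6 libraries, the log2 levels of Sae1 and Uba2 correlated at Pearson r 0.967, Sumo2 and Sae1 at 0.944, and Sumo2 and Uba2 at 0.912. Sumo3 ran opposite to Uba2 (-0.891) and to Pias3 (-0.958). These 6 points fall into 3 groups and share their depth and composition, so the correlations describe group differences and carry no test. Among 10192 genes that had 10 or more fragments in 2 or more libraries, the gene most alike in pattern was Faf2 for Sae1 (0.999), Rpl13 for Uba2 (0.999), Cul5 for Sumo2 (0.998), Fbxw28 for Sumo3 (0.997), Tiparp for Pias1 (0.999), Pxdn for Pias2 (0.993) and Pbx3 for Pias3 (0.993). Uba2 and Rpl13, a ribosomal protein gene, were both lowest in PIASy-WT, where Rpl13 was at 4.07 and 2.68 FPKM against 10.2 to 18.7 elsewhere. With so many genes and 6 points, values this high are found for each of the 7 genes.

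The other SUMO E3 ligases were lower in PIASy-WT where they passed the test. Of 8 such genes 7 were tested, and against non-injection 2 fell and none rose, beside 6.80% of all genes called in either direction. Ranbp2, a nucleoporin with ligase activity, had 20.6 and 17.9 FPKM in non-injection, 21.6 and 12.5 FPKM in PIASy-Mut, and 3.99 and 3.63 FPKM in PIASy-WT. It fell by 2.07 against non-injection (adjusted P 0.0328) and fell by 1.86 against PIASy-Mut (adjusted P 0.0373). Topors, a ligase for both SUMO and ubiquitin, fell by 1.48 against non-injection (adjusted P 0.0317), from 70.7 and 63.3 FPKM to 22.9 and 23.9 FPKM. PIASy-Mut lay between, at 49.7 and 42.8 FPKM, and the difference from it did not pass (-0.95, adjusted P 0.0655). Mul1, a mitochondrial ligase, was lower by 1.91 than in PIASy-Mut (limma adjusted P 0.0392). It was at 8.72 and 6.60 FPKM there, against 1.51 and 1.09 FPKM in PIASy-WT (8 and 5 fragments). Its level in non-injection was 2.57 and 2.87 FPKM, and the difference from that group did not pass (-0.70, adjusted P 0.265). PIASy-Mut itself lay 1.21 above non-injection, which did not pass (adjusted P 0.891). Against the mean of the other groups 4 of 7 fell, beside 10.4% of all genes, with Nsmce2, the ligase of the SMC5/6 complex, as the fourth (-0.93, adjusted P 0.0429). Against non-injection the median difference of the list was -0.70, beside 0.01 over all genes tested, and against PIASy-Mut -0.95, beside -0.03.

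Among the 9 SUMO proteases, Uspl1 fell in both pairwise comparisons with PIASy-WT, by 2.00 against non-injection (adjusted P 0.0332) and fell by 1.93 against PIASy-Mut (adjusted P 0.0342). Its level was 15.0 and 13.6 FPKM in non-injection, 17.3 and 10.6 FPKM in PIASy-Mut, and 3.02 and 2.63 FPKM in PIASy-WT. Senp2, a protease that matures and removes SUMO, fell by 1.82 against the mean of the other groups (adjusted P 0.0471), with PIASy-WT at 1.84 and 2.90 FPKM, PIASy-Mut 2 at 4.84 and the others at 13.6 to 14.0. The other 8 proteases did not pass in the pairwise comparisons, so 1 of 9 was called in each, beside 6.80% and 6.83% of all genes. Against non-injection the median of the list was -1.12, and against PIASy-Mut -1.24, beside 0.01 and -0.03 over all genes. Of the 9 proteases 3 lay above 0 in each of these comparisons, and the summed level of the list was 1325 and 1609 CPM in PIASy-WT and 1273 to 1323 CPM elsewhere.

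Of 9 SUMO-targeted ubiquitin ligases and SUMO-binding nuclear body proteins, 8 were tested and none passed in a comparison of PIASy-WT with 1 other group, beside 6.80% (non-injection) and 6.83% (PIASy-Mut) of all genes. Rnf4, the ubiquitin ligase that reads SUMO chains, fell by 1.39 against the mean of the other groups (adjusted P 0.0330), from 80.9 to 146 FPKM in the other 4 libraries to 37.8 and 40.8 FPKM in PIASy-WT. The median of the list was close to that of all genes, 0.01 against non-injection and, against PIASy-Mut, 0.12.

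**Figure D4:**
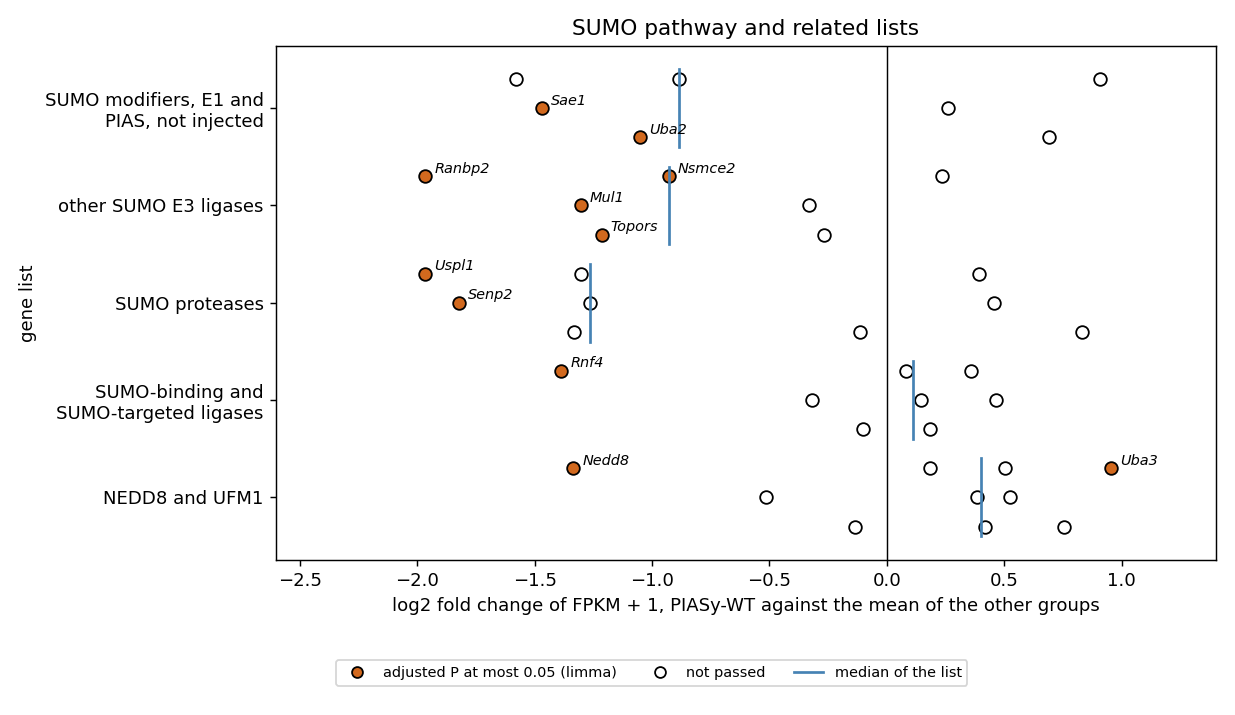
Difference of log2(FPKM + 1) in PIASy-WT against the mean of the other groups for the 7 SUMO genes not injected and each tested gene of 4 other lists, with filled points at a limma adjusted P of at most 0.05 and a vertical line at each list's median. Sae1 (-1.47) and Uba2 (-1.05) lie among other pathway genes that fell, and Uba3 (0.95) is the 1 filled point above 0.

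Genes of related modifiers were set beside the SUMO genes. Of 10 genes of NEDD8 and UFM1 conjugation, the modifier Nedd8 fell by 1.35 against non-injection (adjusted P 0.0335) and fell by 1.32 against PIASy-Mut (adjusted P 0.0342), from 170 to 207 FPKM in the other 4 libraries to 71.2 and 78.7 FPKM. It was the 1 gene called of the 10 in each of these comparisons, beside 6.80% and 6.83% of all genes. Uba3, the catalytic E1 subunit for NEDD8 and the counterpart of Uba2, rose by 0.95 against the mean of the other groups (adjusted P 0.0477), with 51.9 and 48.4 FPKM in PIASy-WT against 19.9 to 34.1 FPKM, as the 1 of 10 called higher there, beside 2.68% of all genes, with 1 (Nedd8) called lower, beside 10.4%. It passed in neither pairwise comparison (0.74, adjusted P 0.137 against non-injection, and 1.17, adjusted P 0.0561 against PIASy-Mut). Its partner subunit Nae1 overlapped between groups (37.4 and 58.5 FPKM in PIASy-WT, 28.0 to 48.1 FPKM elsewhere) and did not pass (0.42, adjusted P 0.352). In PIASy-Mut against non-injection none of the genes of these 4 lists passed (limma), and 1 of them, Mul1, had an unadjusted P under 0.05, beside 0.00621% and 4.46% of all genes. Against non-injection 0 genes of the whole table passed without either non-injection library and 1 (Pias4) without either PIASy-WT library, so the calls of these lists in that comparison rest on all 4. Against PIASy-Mut 0 genes of the whole table passed when any 1 library other than PIASy-Mut 2 was left out. The calls named for the 4 lists kept their direction under every alternative and passed in 7 to 13 of the 17 or 18 tried.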

How the data were processed

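The authors made libraries from 5 pooled embryos with SMART-Seq v4 and Nextera XT (11 and 13 PCR cycles), trimmed reads with Trim Galore, aligned them to mm10 with STAR and counted them per gene with featureCounts. The annotation release and strand setting are not given in the sources used here. The authors deposited FPKM values for 53023 genes in 6 libraries. FPKM times gene length, scaled in each library by what a single fragment adds, gave whole fragments for every value above 0 (tolerance 1e-06), which set depth and counting precision. Counting intervals cover counting error only. The study tested counts. Here limma 3.58.1 in R 4.3.3 (lmFit and eBayes with trend) was fitted to log2(FPKM + 1) of 16100 genes with FPKM of 1 or more in 2 or more libraries, two-sided, with Benjamini-Hochberg adjustment over all of them. The pseudocount of 1 understates changes of low genes. Called means an adjusted P of at most 0.05. P-values measure spread between 2 pools per group. The fit was tested on simulated data. Members and lists were chosen with earlier results of these data known. All members were named, as were list genes called in any comparison. Some pathway genes are not reported here. The codon of Pias2 and promoters of Sae1, Pias2 and Pias4 were not analysed here. Gene models of 7 of the 8 genes matched GENCODE M21 in length.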

Additional observations from a re-analysis of the deposited data

How the results depend on the processing

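With 2 libraries per group, the number of SUMO genes called was sensitive to the settings, while no direction of a called value turned under the 18 alternatives (17 for the mean of the other groups). The share of all genes called also changes with the setting, so these counts describe the settings and are no result on the SUMO genes. As planned it was 6.80% against non-injection, 6.83% against PIASy-Mut and 0.00621% in PIASy-Mut against non-injection. Against the mean of the other groups it was 10.4% lower and 2.68% higher. Against non-injection 1 was called in PIASy-WT, 2 with an FPKM of at least 5, 3 with only the groups compared or with voom on recovered fragments, and 0 to 4 leaving out a library. Without either PIASy-Mut library Sumo3 (adjusted P 0.0342 and 0.0352), Sae1 and Uba2 also passed, and without either non-injection library Pias4 was at 0.0924 and 0.0827. Against PIASy-Mut the count was 0, and 1 with an FPKM of at least 5 or with voom, and 0 to 2 leaving out a library. In PIASy-Mut against non-injection it was 1, 0 with only the groups compared, and 0 to 1 leaving out a library. Against the mean of the other groups it was 3, and 1 without a filter, with quantile normalization, with median-of-ratios scaling and without a trend, 2 with robust eBayes (Uba2 at 0.0508), 4 with voom (Sumo3, Sae1, Uba2 and Pias4), and 0 to 4 leaving out a library. Voom with at least 10 fragments, chosen after seeing the data, called 4, 3 and 6 in the comparisons of PIASy-WT, in the order above. Replicate numbers did not pair the samples: deviations of same-numbered libraries correlated at 0.00368 to 0.0851. With a replicate block the count against the mean of the other groups was 1, with Sae1 at an adjusted P of 0.0520 and Uba2 at 0.0611, and other counts did not change. Under quantile normalization the median of all genes moved to 0.116 against non-injection and 0.153 against the mean of the other groups. Leaving out 1 PIASy-Mut library turned the sign of uncalled values in PIASy-Mut against non-injection, of Sumo2 (-0.30) and Sae1 (-0.16) without PIASy-Mut 1 and of Uba2 (0.11) and Pias3 (0.15) without PIASy-Mut 2, and of Pias3 in PIASy-WT against PIASy-Mut (0.19) without PIASy-Mut 1. The cause was not tested. Depth limits Sumo2 and Pias3 most.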
